A study of Mus musculus with 25 samples.

Results

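Transcript levels of 10 genes of smooth muscle cells and pericytes, Acta2, Actg2, Myh11, Tagln, Cnn1, Myl9, Rgs5, Kcnj8, Abcc9 and Cspg4, were followed across the compartments of the forming mouse palate. They were picked by gene symbol from a table of 37406 genes, and each symbol matched 1 row. The tissue came from wild type CD1 mouse embryos at E14.5, soon after the palatal shelves fuse, and their labels name no treatment or transgene. Laser capture microdissection, which cuts chosen areas from tissue sections, gave 25 RNA-Seq libraries from 8 compartments: the medial, lateral, oral and nasal areas of the anterior palate and the same areas of the posterior palate. The study divided the palatal shelves into medial and lateral areas and, in a separate diagram, into oral and nasal areas. Areas of these divisions may therefore overlap, and the 4 positions of a side need not be separate places. There were 3 libraries per compartment and 4 for anterior nasal, so 13 were anterior and 12 posterior. Levels are given in RPKM, mapped reads adjusted for transcript length and for the size of each library, which allows levels of different genes to be compared per length.

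Smooth muscle cells wrap arteries and larger vessels and contract through actin and smooth muscle myosin. Pericytes sit on capillaries, sense vessel signals and share part of the contractile program, and together the 2 cell types are called mural cells. In the developing palate mural cells surround the vessels of the neural crest derived mesenchyme, while actin and calponin family genes of this program can also be switched on in other mesenchymal cells that contract.

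Among the members, Acta2 and Actg2 encode smooth muscle actins, Myh11 the smooth muscle myosin heavy chain, Myl9 a regulatory light chain of myosin, and Tagln and Cnn1 the actin binding proteins transgelin and calponin. Rgs5 encodes a regulator of G protein signaling that marks pericytes. Kcnj8 and Abcc9 encode the pore, Kir6.1, and the sulfonylurea receptor, SUR2, of a potassium channel gated by ATP, and Cspg4 encodes the NG2 proteoglycan of mural and other progenitor cells. Kcnj8 (chr6:142513459-142519876) and Abcc9 (chr6:142536382-142650794) lie next to each other in the mm9 build, with 16506 bases between them.

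Promoters were available from RefSeq (GRCm38.p6) for 7 of the 10 genes, and Actg2, Myh11 and Tagln had none. Each window held 250 bases before and 50 bases after the annotated start and was searched on both strands for the CArG box, the site of serum response factor, for TGGGAA, the core of the RBPJ site of Notch signaling, and for GGAATG, the core of the TEAD site. Matches are a description of the letters in these windows. The CArG box was searched in its strict form, CC and GG around 6 bases that are each A or T, and forms with a mismatch were not counted. A strict match was found in Myl9 alone of the 7, where it began 161 bases before the start, and 1.63% of 32851 RefSeq promoters held one. TGGGAA occurred in Acta2, Kcnj8 and Abcc9, against 25.6% of all promoters. GGAATG occurred in Acta2 and Abcc9, against 14.7% of all promoters, and in Abcc9 it overlapped TGGGAA. Cnn1, Rgs5 and Cspg4 held none of the 3 motifs. The windows with a match are shown 5′ to 3′ on the gene's strand, with matches in capitals, because they belong to the most abundant member, the actin that varied most between medial and lateral tissue of the posterior palate, and the channel pair that differed most regularly along the anterior-posterior axis. Myl9 is chr2:156775214-156775513 (plus strand), Acta2 is chr19:34255324-34255623 (minus strand), Kcnj8 is chr6:142571565-142571864 (minus strand) and Abcc9 is chr6:142702225-142702524 (minus strand).
Myl9: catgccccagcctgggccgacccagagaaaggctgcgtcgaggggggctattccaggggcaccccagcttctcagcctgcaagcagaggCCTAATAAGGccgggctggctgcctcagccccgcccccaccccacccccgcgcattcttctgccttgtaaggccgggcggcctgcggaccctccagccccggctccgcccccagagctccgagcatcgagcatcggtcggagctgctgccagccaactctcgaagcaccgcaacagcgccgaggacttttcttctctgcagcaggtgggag
Acta2: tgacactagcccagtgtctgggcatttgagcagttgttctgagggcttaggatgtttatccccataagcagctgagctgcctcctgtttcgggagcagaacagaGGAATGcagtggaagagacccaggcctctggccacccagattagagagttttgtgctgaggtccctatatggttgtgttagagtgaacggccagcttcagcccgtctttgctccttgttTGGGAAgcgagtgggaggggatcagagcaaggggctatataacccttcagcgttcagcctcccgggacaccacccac
Kcnj8: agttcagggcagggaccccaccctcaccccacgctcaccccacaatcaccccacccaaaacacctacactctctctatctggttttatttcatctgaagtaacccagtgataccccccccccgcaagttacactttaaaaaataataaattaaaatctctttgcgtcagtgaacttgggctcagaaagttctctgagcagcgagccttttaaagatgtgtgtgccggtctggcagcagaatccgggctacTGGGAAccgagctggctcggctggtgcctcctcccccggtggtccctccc
Abcc9: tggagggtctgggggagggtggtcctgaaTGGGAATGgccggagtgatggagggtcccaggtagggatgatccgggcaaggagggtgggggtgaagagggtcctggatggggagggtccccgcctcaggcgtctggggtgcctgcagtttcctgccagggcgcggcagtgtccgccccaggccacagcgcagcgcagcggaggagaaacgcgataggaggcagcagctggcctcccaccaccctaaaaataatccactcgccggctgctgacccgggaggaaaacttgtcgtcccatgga

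The libraries were shallow after the authors' removal of duplicate and multiply aligned reads. The size of 1 read in the RPKM values implied 1.64 to 6.56 M reads per library (median 3.27). Median reads per library on a member ranged from 7 for Cnn1 and 8 for Actg2 to 368 for Myl9, so low levels of Cnn1 and Actg2 rest on few reads. All 8 mesenchyme markers checked were present in every library, with Osr2, the lowest, at 12.8 RPKM or more. Of the skeletal muscle markers, Myod1, which defines that lineage, was listed at 0 in 14 libraries, whereas Acta1, Ttn, Chrna1 and Neb were above 0 in all 25 and Actc1 reached 53.3 RPKM. Posterior medial replicate 2 stood apart, with 12935 genes above 0 against 16330 or more in every other library and a mean correlation of 0.652 with its replicates. Anterior oral replicate 1 was next, at 0.703, and was the shallowest library. Posterior lateral replicate 1 and posterior medial replicate 1 carried the name ERK2_WT in their alignment names, and anterior oral replicate 3, anterior nasal replicate 4, posterior oral replicate 1 and posterior nasal replicate 1, which made up 1 sequencing run, carried Tgfbr2_WT. What these names mean is not given in the sources used here. The labels tie no library to an embryo, so p-values measure the spread between these samples, which may in part be technical. In such bulk tissue, fewer cells of a type and less RNA per cell cannot be told apart.

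The 10 genes covered a wide range of levels. Myl9 was the most abundant, with compartment means from 75.1 to 134 RPKM, followed by Acta2 with means from 11.9 to 65.7 RPKM. Tagln means lay between 5.98 and 21.3 RPKM and Rgs5 means between 3.44 and 27.3 RPKM. Cspg4 means had the narrow range of 5.63 to 10.3 RPKM, while those of Actg2 (0.416 to 19.1 RPKM), Abcc9 (2.21 to 18.5 RPKM), Kcnj8 (0.849 to 12.1 RPKM) and Myh11 (0.592 to 7.64 RPKM) were spread more widely. Cnn1 was the lowest, with means from 0.483 to 1.34 RPKM. Cnn1 never reached the expression minimum of 5 RPKM in 3 libraries that the study used, so it was tested nowhere at that minimum.

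**Figure D1:**
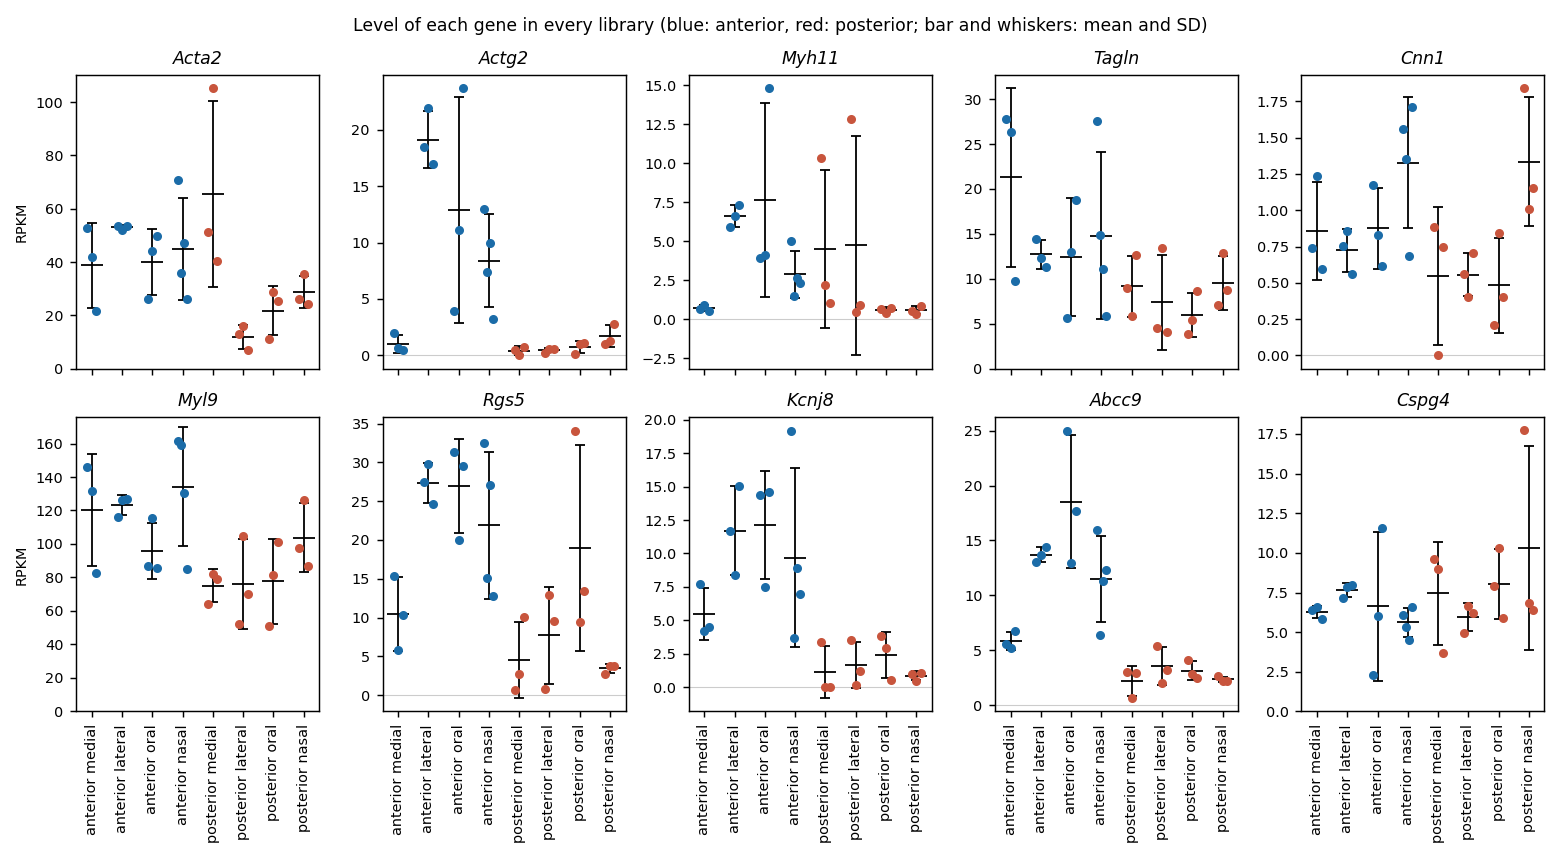
Level of each of the 10 genes in RPKM (y axis, linear) in every library (points), by compartment (x axis), with anterior compartments in blue and posterior ones in red. Horizontal bars are means and whiskers SD (n = 3, or 4 for anterior nasal). Actg2, Kcnj8 and Abcc9 were concentrated in anterior libraries, Acta2 peaked in posterior medial at 65.7 RPKM, and Myh11 reached 12.9 and 10.3 RPKM in 1 posterior lateral and 1 posterior medial library.

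A test for any difference among the 8 compartments was applied first, to find which of the genes had a compartment pattern at all. With the limma F test, 526 of 11913 genes passed at an adjusted p under 0.05, that is 4.42%. Of the 9 members with the expression minimum, 5 passed: Abcc9 (adjusted p = 0.000184), Actg2 (0.000221), Kcnj8 (0.0148), Acta2 (0.0210) and Rgs5 (0.0465). Myh11 (0.0567), Myl9 (0.353), Tagln (0.605) and Cspg4 (0.917) did not. Actg2 and Kcnj8 met the minimum through anterior libraries alone, so that such genes had to differ, and the count is given as a description. With the sequencing run as a term, Kcnj8 alone of the 9 passed. Without the 4 Tgfbr2_WT libraries 3 members passed, and Kcnj8 (adjusted p = 0.0999) and Rgs5 (0.224) did not. Rgs5 lost its call when any of 21 single libraries was left out, with adjusted p between 0.00873 and 0.105 over the 25 omissions. Acta2 lost it without posterior lateral replicate 1 (adjusted p = 0.0503) or replicate 3 (0.102), and Myh11 gained it without any of 5 posterior medial or lateral libraries, most clearly without posterior lateral replicate 1 (0.00221), 1 of the ERK2_WT libraries.

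The order of compartments differed between genes. Actg2 was highest in anterior lateral (19.1 ± 2.53 RPKM, SD, n = 3), followed by anterior oral (12.9 ± 10.01) and anterior nasal (8.40 ± 4.12, n = 4), and every other compartment had a mean under 2 RPKM. The step from anterior nasal to posterior nasal (1.71 ± 0.959 RPKM) was the only neighbouring pair in its order whose libraries did not overlap. Abcc9 and Kcnj8 had the same first 4 compartments in the same order, namely anterior oral (18.5 ± 6.08 and 12.1 ± 4.04 RPKM), anterior lateral (13.7 ± 0.681 and 11.7 ± 3.31), anterior nasal (11.5 ± 3.92 and 9.68 ± 6.70) and anterior medial (5.83 ± 0.812 and 5.46 ± 1.94), with libraries of neighbouring compartments overlapping. Rgs5 was likewise highest in anterior lateral (27.3 ± 2.58 RPKM) and anterior oral (27.0 ± 6.11 RPKM), which overlapped. Acta2 had another order, from posterior medial (65.7 ± 34.9 RPKM) and anterior lateral (53.1 ± 0.8002 RPKM) down to posterior lateral (11.9 ± 4.59 RPKM), and neighbours in this order overlapped throughout. Kcnj8 had 1 step without overlap, from anterior medial to posterior oral (2.41 ± 1.71 RPKM), and Myh11 had 1, from anterior nasal (2.88 ± 1.52 RPKM) to anterior medial (0.715 ± 0.197 RPKM). Myl9, Tagln, Cnn1 and Cspg4 showed no pair of neighbouring compartments without overlap.

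The anterior and posterior palate were then compared, pooling all compartments of each as the study did, for genes reaching 10 RPKM in 6 or more libraries. By limma, 286 of 8608 genes passed at an adjusted p under 0.05 (3.32%), and 1.66% passed with a lower level in the posterior palate. This minimum was met by 6 members. Abcc9, Actg2, Rgs5 and Myl9, or 4 of the 6, were lower in the posterior palate, while Tagln and Acta2 did not pass. Actg2 and Abcc9 met the minimum through anterior libraries alone, so that a gene of this kind had to differ, and the count is given as a description. Over all 10 members without an expression filter the median log2 difference, posterior minus anterior, was -1.08, against -0.09 over the 22399 genes listed, and 4 of the 10 passed, as did 2.17% of these genes. Without the Tgfbr2_WT libraries 4 members passed as well, with adjusted p between 0.000193 for Abcc9 and 0.0395 for Myl9.

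For the channel subunit gene Abcc9, the lowest, median and highest levels were 5.19, 12.9 and 24.99 RPKM in anterior libraries and 0.664, 2.74 and 5.45 RPKM in posterior ones. Only posterior lateral replicate 1 was above the lowest anterior library, which was anterior medial replicate 2. The log2 difference was -2.07 (SE 0.26, adjusted p = 9.12e-06). It remained between -1.91 and -2.17 whichever single library was left out, and was -1.81 (adjusted p = 2.22e-06) without posterior medial replicate 2 and anterior oral replicate 1.

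The partner gene Kcnj8 spanned 3.67, 8.41 and 19.2 RPKM in anterior libraries and 0, 1.04 and 3.80 RPKM in posterior ones. It was listed at 0 in posterior medial replicates 2 and 3, where 3 reads would have given 0.501 and 0.305 RPKM. The groups overlapped through posterior oral replicate 1 and anterior nasal replicate 2 only. Kcnj8 did not have 10 RPKM in 6 libraries and so was not tested under the study's minimum. At the alternative minimum of 1 RPKM in 3 libraries it was lower in the posterior palate, with a log2 difference of -3.30 (SE 0.55, adjusted p = 0.000441), and 3.47% of genes passed at that minimum.

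Actg2, the enteric type smooth muscle actin, ran from 0.435 over a median of 9.99 to 23.7 RPKM in anterior libraries and from 0 over 0.668 to 2.81 RPKM in posterior ones. High values belonged to the lateral, oral and nasal anterior libraries, and the 3 anterior medial libraries, at 0.435 to 1.94 RPKM, lay within the posterior range. The log2 difference was -3.17 (SE 0.60, adjusted p = 0.00172). The posterior level corresponded to at most 9 reads in a library, which limits the precision of the fold.

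Rgs5 ran from 5.80 over a median of 24.7 to 32.5 RPKM in anterior libraries and from 0.711 over 6.62 to 34.1 RPKM in posterior ones. Its highest value of all was in posterior oral replicate 1, and its 2 lowest were in the ERK2_WT libraries, at 0.743 and 0.711 RPKM. The log2 difference was -1.89 (SE 0.47, adjusted p = 0.0214). It was -1.36 (adjusted p = 0.0430) without the ERK2_WT libraries.

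The contractile genes with broad expression had smaller log2 differences. Myl9 ran from 82.6 over 126 to 162 RPKM in anterior libraries and from 50.9 over 81.7 to 127 RPKM in posterior ones, a log2 difference of -0.54 (SE 0.15, adjusted p = 0.0424). This call was marginal, since it was lost without the ERK2_WT libraries (adjusted p = 0.107), with no or a low expression minimum (adjusted p = 0.0778 and 0.0503) and when any of 16 single libraries was left out, with adjusted p up to 0.0748. Tagln had a log2 difference of -0.87 (adjusted p = 0.0720) and Acta2 one of -0.75 (adjusted p = 0.231), with both ranges overlapping widely. Leaving out posterior medial replicate 2, the library with the highest Acta2 level, gave -0.94 for Acta2 (adjusted p = 0.0375). Leaving out posterior lateral replicate 2, anterior nasal replicate 4 or anterior oral replicate 1 likewise brought Tagln past the threshold, with adjusted p of 0.0488, 0.0316 and 0.0293. Without both low correlation libraries all 6 members with the minimum passed. The share of all genes that passed in that fit is not given here, so this count is a description. Under the study's rule, an unadjusted P under 0.05 with more than a 2-fold difference, 3 members were counted, Abcc9, Actg2 and Rgs5, where 1.75% of genes met the rule.

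Members under the minimum included Myh11, Cnn1 and Cspg4. Myh11 ran from 0.565 over 3.93 to 14.8 RPKM in anterior libraries and from 0.340 over 0.806 to 12.9 RPKM in posterior ones. Its high posterior values were the ERK2_WT libraries, at 12.9 RPKM (posterior lateral replicate 1) and 10.3 RPKM (posterior medial replicate 1), while no other posterior library exceeded 2.23 RPKM. At the lower minimum Myh11 had a log2 difference of -1.28 (adjusted p = 0.279), Cnn1 of -0.59 (adjusted p = 0.406) and Cspg4 of 0.26 (adjusted p = 0.620). The ERK2_WT libraries thus had the highest Myh11 and the lowest Rgs5 of the posterior libraries, and the part of the alignment name or run in this was not tested.

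**Figure D2:**
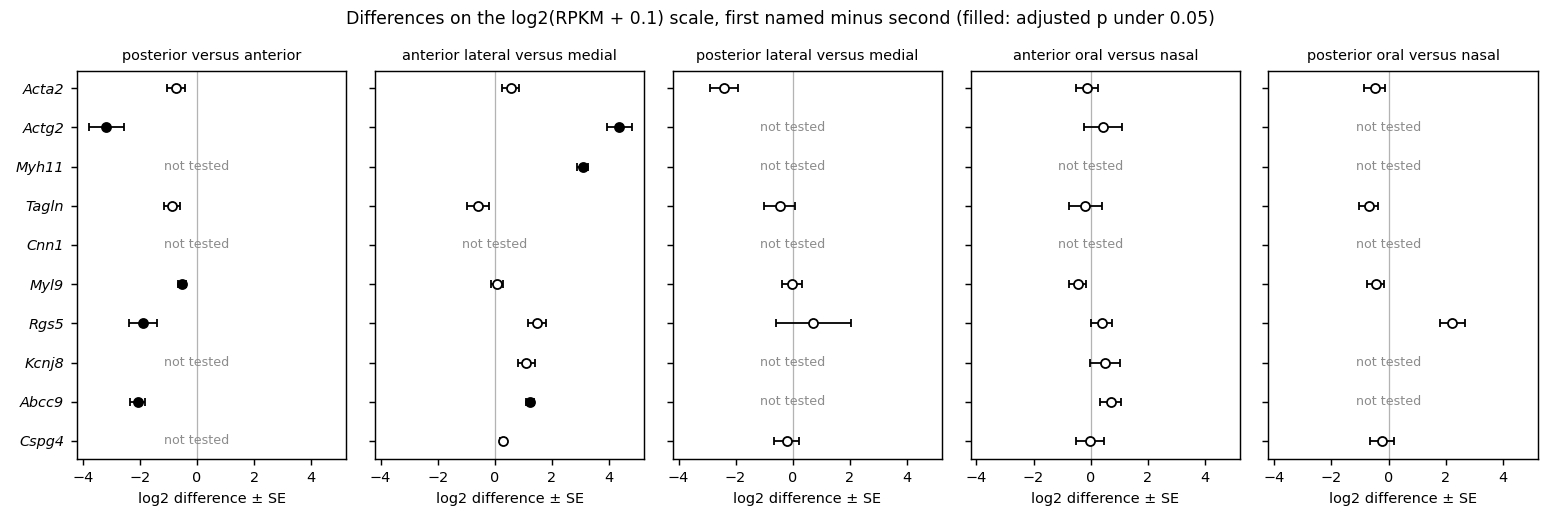
Log2 differences of log2(RPKM + 0.1) with their standard errors (x axis) for each gene (y axis) in the 5 comparisons, first named compartment minus second. Filled points had an adjusted p under 0.05 by limma and genes under the expression minimum are marked as not tested. In the posterior versus anterior panel all 6 points lie below 0, from -3.17 for Actg2 to -0.54 for Myl9, and in the anterior lateral versus medial panel Actg2 and Myh11 lie at 4.36 and 3.07.

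The anterior-posterior difference was also examined at each position separately. Ranges were compared over the 11913 genes with 5 RPKM in 3 libraries, 9 members among them. Actg2 and Kcnj8 met this minimum through anterior libraries alone, so that such genes had to be lower in the posterior at some position, and the counts are given as a description. In the lateral palate 7 members were lower in the posterior without overlap (10.8% of all genes), in the nasal palate 5 (6.46%), in the oral palate 4 (3.32%) and in the medial palate 3 (7.41%). Kcnj8 and Abcc9 were lower without overlap at all 4 positions, as were 50 of the 11913 genes (0.42%). Actg2 did not overlap at the lateral, oral and nasal positions. At the lateral position Actg2 averaged 19.1 RPKM in the anterior and 0.478 RPKM in the posterior palate, and Acta2 averaged 53.1 and 11.9 RPKM.

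At the medial position the means of Acta2, Myh11 and Cspg4 were higher in the posterior, and whether positions differed is tested with the interactions. Acta2 averaged 38.8 ± 15.9 RPKM in anterior medial and 65.7 ± 34.9 RPKM in posterior medial, with overlap. Myh11 was higher in posterior medial without overlap, at 0.565 to 0.938 RPKM against 1.03 to 10.3 RPKM, and 5.05% of all genes were higher there without overlap. Cspg4 had log2 differences, posterior minus anterior, from -0.37 in lateral, without overlap, to 0.71 in nasal, where 5.63 ± 0.9203 and 10.3 ± 6.44 RPKM overlapped.

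Because compartments were spread unevenly over 8 sequencing runs, the anterior and posterior libraries of a position were also compared within the 1 run they shared. This set 3 anterior against 2 posterior libraries in medial, 1 against 2 in lateral and 1 against 1 in oral and nasal, and the values are given with no test. The oral and nasal libraries used here were the 4 Tgfbr2_WT libraries, and the medial ones included posterior medial replicate 2, which had the lowest replicate correlation. Abcc9 was lower in the posterior at all 4 positions, by log2 differences between -2.45 and -1.96. Actg2 was lower at all 4, between -6.81 and -1.56. The first of these set 23.7 RPKM in anterior oral against 0.113 RPKM in posterior oral, which is 1 read, so that its size depends on the pseudocount. Kcnj8 was lower at all 4 as well, and in the medial run it averaged 5.46 RPKM in 3 anterior libraries and was listed at 0 in both posterior libraries. Acta2, Myh11, Tagln, Cnn1, Myl9, Rgs5 and Cspg4 had the lower mean of log2(RPKM + 0.1) in the posterior at 3 of 4 positions. Some of these differences were small, as for Acta2 in nasal (26.2 RPKM in anterior and 26.1 RPKM in posterior). Cspg4 in medial had a log2 difference of -0.11, but its mean RPKM was higher in the posterior (6.36 against 6.28 RPKM). When the run was a term of the fit over all 25 libraries, Abcc9 (log2 difference -2.16, adjusted p = 0.00500) and Actg2 (-3.67, adjusted p = 0.0103) passed, whereas Rgs5 (-0.996, adjusted p = 0.539) and Myl9 (-0.41, adjusted p = 0.711) did not. Abcc9 and Actg2 met the minimum of this fit through anterior libraries alone, so that such genes had to differ. The share of all genes that passed in it is not given here, so these calls are descriptions.

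**Figure D3:**
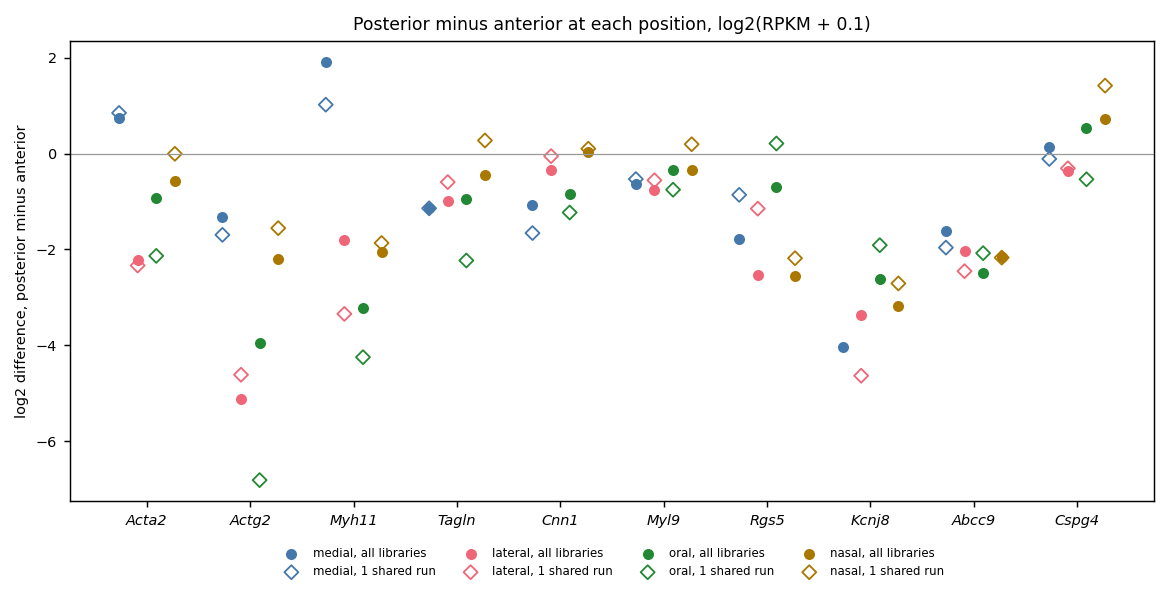
Posterior minus anterior difference of mean log2(RPKM + 0.1) (y axis) for each gene (x axis) at the 4 positions (colors), over all libraries (filled circles) and within the 1 sequencing run that both sides shared (open diamonds, 1 to 3 libraries a side). Kcnj8 in the medial run has no diamond because it was listed at 0 in both posterior libraries. All points of Abcc9, Actg2 and Kcnj8 lie below 0, and the run differences of Abcc9 lie between -2.45 and -1.96.

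Other genes of mural cells were given the same test along this axis. Of 14 other smooth muscle contractile and cytoskeletal genes with the minimum, 2 were lower in the posterior palate and none higher, with a list median of -0.13 against 0.03 over all genes tested. At an unadjusted p under 0.05 there were 6 of the 14, and 1321 of all 8608 genes. The 2 that passed after adjustment were the integrin gene Itga8 (log2 difference -1.45, adjusted p = 3.27e-05, mean 66.2 RPKM in anterior and 25.4 RPKM in posterior) and the actin bundling gene Synpo2 (-2.19, adjusted p = 0.0162). Tpm1 (-0.40, adjusted p = 0.0748) and Vcl (-0.30, adjusted p = 0.116) did not pass. Among 13 ligands and receptors of mural cells, the endothelin receptor gene Ednra was lower in the posterior (-1.03, adjusted p = 0.0190, 87.96 and 50.4 RPKM), and S1pr3, Pdgfrb and Tgfbr1 did not pass (0.43, -0.46 and 0.22). In this list 2 of 13 had an unadjusted p under 0.05.

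None of 8 other pericyte and mural cell genes and none of 5 regulators of smooth muscle genes passed by limma, and 1 of each list had an unadjusted p under 0.05. Their medians were -0.35 and -0.32. The Notch target Heyl came nearest among the pericyte genes (-1.68, adjusted p = 0.0830), followed by Pdgfrb, the PDGF receptor of pericytes (-0.46, adjusted p = 0.332), Mcam (-0.34, adjusted p = 0.377) and Cox4i2 (-0.83, adjusted p = 0.576). Of the regulators, Nr2f2 (0.51), Mkl2 (-0.34), Mkl1 (0.34) and Srf (-0.32) had adjusted p of 0.319, 0.365, 0.533 and 0.541.

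Markers of other cell types were given the same test. The summed level of 16 endothelial markers ranged from 156 to 412 RPKM (median 243) in anterior and from 124 to 347 RPKM (median 247) in posterior libraries. Of 15 endothelial markers tested, 1 was lower in the posterior, the arterial connexin gene Gja5 (-2.47, adjusted p = 0.0321), none was higher, and 3 had an unadjusted p under 0.05. Epithelial markers summed to 46.7 to 157 RPKM (median 93.6) in anterior and 30.6 to 191 RPKM (median 52.2) in posterior libraries. Erythroid markers summed to 202 to 481 RPKM (median 306) in anterior and 245 to 690.1 RPKM (median 487) in posterior libraries, and osteoblast and cartilage markers to 63.96 to 216 RPKM (median 146) and 94.8 to 673 RPKM (median 199). Skeletal muscle markers summed to 7.95 to 168 RPKM in anterior and 5.86 to 251 RPKM in posterior libraries, with 0 of 2 tested passing and 0 at an unadjusted p under 0.05, and 2 of 16 were under 1 RPKM throughout either side. None of 4 epithelial, 4 erythroid, 7 macrophage and 1 Schwann and nerve markers tested passed, with 0, 1, 2 and 0 of them at an unadjusted p under 0.05. Among osteoblast and cartilage markers Col2a1 was higher in the posterior (1.20, adjusted p = 0.00374), 1 of 6, and among 8 mesenchyme markers Prrx1 was lower (-0.69) and Col1a1 higher (0.46). The part of these cells in the differences of the members was not tested.

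Anterior lateral palate was compared with anterior medial palate next. By limma 262 of 10427 genes passed (2.51%), with 1.43% higher in lateral. The minimum of 5 RPKM in 3 of the 6 libraries was met by 9 members, and 3 of them, Actg2, Myh11 and Abcc9, were higher in lateral. Actg2 and Myh11 met the minimum through lateral libraries alone, so that such genes had to differ. The counts of members in this comparison and the adjusted p of these genes are therefore given as descriptions. With no minimum, the same number of the 10 members passed, as did 0.841% of genes, and their median log2 difference was 0.83 against 0.00 over the genes listed. Libraries of 6 of the 9 members did not overlap, against 21.3% of genes tested.

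Actg2 measured 18.5, 21.9 and 17.0 RPKM in the lateral libraries and 1.94, 0.645 and 0.435 RPKM in the medial ones. The lateral libraries were far above the medial ones, and the log2 difference was 4.36 (SE 0.44, adjusted p = 0.00429). Myh11 measured 5.95, 6.62 and 7.35 RPKM in lateral and 0.640, 0.938 and 0.565 RPKM in medial. All lateral values again exceeded all medial values, with a log2 difference of 3.07 (SE 0.19, adjusted p = 0.000556). Abcc9 measured 13.01, 13.7 and 14.4 RPKM in lateral and 5.56, 5.19 and 6.75 RPKM in medial, a log2 difference of 1.23 (SE 0.13, adjusted p = 0.00514).

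The other pericyte genes lay on the same side without passing. Rgs5 measured 27.5, 29.8 and 24.7 RPKM in lateral and 15.4, 5.80 and 10.3 RPKM in medial, with no overlap and a log2 difference of 1.48 (adjusted p = 0.0635). It passed when anterior medial replicate 1 was left out (1.81, adjusted p = 0.0276). Kcnj8 measured 11.7, 8.41 and 15.03 RPKM in lateral and 7.69, 4.18 and 4.51 RPKM in medial, a log2 difference of 1.10 (adjusted p = 0.106). Cspg4 did not overlap either but differed by 0.28 (adjusted p = 0.293).

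Among the abundant contractile genes none passed. Acta2 differed by 0.55 (adjusted p = 0.461) and Myl9 by 0.08 (adjusted p = 0.921), both overlapping. Tagln was at -0.60 (adjusted p = 0.524), and at -1.09 (adjusted p = 0.0229) without anterior medial replicate 3. Cnn1 was not tested, with means of 0.723 RPKM in lateral and 0.856 RPKM in medial that overlapped. Under the study's rule 5 members were counted, Rgs5 and Kcnj8 in addition to the 3 above, where 2.37% of genes met the rule.

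All anterior medial libraries came from 1 run and the anterior lateral libraries from other runs, so that run and compartment cannot be told apart in this comparison. With all 25 libraries in 1 fit, which pools the spread, Actg2 alone passed, and with the run as a further term no member passed (0 genes of 10427 passed and 154 had an unadjusted p under 0.05). When a lateral library was left out and the minimum applied anew, Actg2 and Myh11 dropped from the test and 1 member passed. On the same genes, between 3 and 4 members passed whichever library was left out.

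Other lists also moved between these compartments. Of 9 other pericyte genes with the minimum, 3 were higher and 1 lower in lateral, with a median of 0.89 against -0.03 over all genes tested. All 9 had an unadjusted p under 0.05, as did 1566 of the 10427 genes tested. Named after their values were seen, those that passed were Gucy1a3 (1.29), Heyl (1.67) and Mcam (0.78) on the higher side and Cox4i2 (-0.95) on the lower side. Of 14 other contractile genes 2 were higher, Pgm5 (1.15) and Synpo2 (1.19), and of 16 ligands and receptors the Notch target Hey2 was higher (2.23) and S1pr3 lower (-0.85). None of 6 regulators passed, and 2 had an unadjusted p under 0.05. The endothelial markers summed to 313 to 349 RPKM in lateral and 204 to 243 RPKM in medial libraries without overlap, and 2 of 15 passed, Gja5 at 4.74 and Gja4 at 1.93, with 12 of 15 at an unadjusted p under 0.05. Schwann and nerve markers also summed higher in lateral, at 35.7 to 44.4 RPKM against 11.9 to 16.96 RPKM, and 1 of 3 tested passed, Sox10 (2.43, adjusted p = 0.00408). Of 5 osteoblast and cartilage markers 3 were lower in lateral, Sox9 (-2.36, adjusted p = 0.00216), Acan (-2.55, adjusted p = 0.00649) and Runx2 (-1.54, adjusted p = 0.0248), and all 5 had an unadjusted p under 0.05. Of 7 epithelial markers the basal keratin gene Krt14 was lower (-2.15, adjusted p = 0.0104) and Krt8 higher (1.36, adjusted p = 0.0498), and the mesenchyme marker Osr2 was higher (0.96, adjusted p = 0.0450). Their part in the differences of the members was not tested.

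Posterior lateral palate was then compared with posterior medial palate. No gene of 10324 passed by limma (0%), and 159 had an unadjusted p under 0.05. The minimum was met by 5 members, none passed, and 1 had an unadjusted p under 0.05. Acta2 measured 12.9, 15.96 and 6.95 RPKM in lateral and 51.2, 105 and 40.3 RPKM in medial libraries. Every lateral library was below every medial one, as for 6.62% of genes in either direction, and the log2 difference was -2.40 (SE 0.50, unadjusted p = 0.00247, adjusted p = 0.957). It was the only member to meet the study's rule, which 1.12% of genes met.

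In the fit of all 25 libraries Acta2 was the 1 member that passed in this comparison (adjusted p = 0.0169). The share of all genes that passed in that fit is not given here, so this call is a description. The Acta2 difference ranged from -2.69 to -2.0 when single libraries were left out, the smallest being without posterior medial replicate 2. The other members tested differed by -0.46 for Tagln, -0.04 for Myl9, 0.72 for Rgs5 and -0.22 for Cspg4, and all of these overlapped. Actg2, Myh11, Cnn1, Kcnj8 and Abcc9 did not have the minimum. Lateral and medial means were 4.73 and 4.53 RPKM for Myh11, 0.556 and 0.545 RPKM for Cnn1, 1.64 and 1.12 RPKM for Kcnj8 and 3.56 and 2.21 RPKM for Abcc9, and Actg2 stayed at 0.605 RPKM or below in lateral and 0.730 RPKM or below in medial libraries. The summed level of skeletal muscle markers was 42.0 to 251 RPKM in posterior lateral and 5.86 to 36.9 RPKM in posterior medial libraries, and that of epithelial markers was 31.2 to 52.2 RPKM and 74.2 to 191 RPKM. Their part in the Acta2 values was not tested, and the libraries of these 2 compartments shared no run.

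Whether the lateral-medial difference itself changed along the axis was tested as an interaction. No member of 9 tested passed by limma, 3 had an unadjusted p under 0.05, and 1 of 11089 genes did (0.00902%), with 373 at an unadjusted p under 0.05. Acta2 had an interaction of 2.95 (SE 0.63, unadjusted p = 0.000794, adjusted p = 0.339), Actg2 of 3.79 (SE 1.06, adjusted p = 0.797) and Myh11 of 3.73 (SE 1.53, adjusted p = 0.964). These 3 met the study's rule, as did 2.42% of genes. The other 6 lay between -0.66 for Kcnj8 and 0.76 for Rgs5. Actg2 passed with a pseudocount of 1 in place of 0.1 (3.30, adjusted p = 0.0182). It met the minimum through the anterior lateral libraries alone, so that such a gene had to differ. The Actg2 values and the count under the study's rule are therefore descriptions.

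Oral and nasal compartments were compared last. In the anterior palate no gene of 10684 passed (0%), 318 had an unadjusted p under 0.05, and none of the 8 members with the minimum met either rule, where 1.44% of genes met the study's rule. The largest difference was that of Abcc9, with 24.99, 12.9 and 17.7 RPKM in oral and 15.9, 6.41, 11.3 and 12.3 RPKM in nasal libraries. These overlapped, and the log2 difference was 0.71 (SE 0.37, adjusted p close to 1). The other log2 differences were 0.51 for Kcnj8, 0.43 for Actg2, 0.38 for Rgs5, -0.03 for Cspg4, -0.13 for Acta2, -0.19 for Tagln and -0.45 for Myl9. Myh11 (7.64 and 2.88 RPKM) and Cnn1 (0.875 and 1.33 RPKM) were not tested and overlapped.

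In the posterior palate 132 of 10586 genes passed (1.25%), none of them among the 5 members with the minimum, of which 1 had an unadjusted p under 0.05. Rgs5 measured 34.1, 9.46 and 13.4 RPKM in oral and 2.75, 3.78 and 3.78 RPKM in nasal libraries. All oral libraries were above all nasal ones, as for 11.8% of genes in either direction, and the log2 difference was 2.23 (SE 0.44, adjusted p = 0.0597). Rgs5 met the study's rule, which 3.5% of genes met. Rgs5 met the minimum through the 3 oral libraries alone, so that such a gene had to differ, and these values are a description. Without posterior oral replicate 1, the highest library, it no longer had the minimum and was not tested, and on the genes of the full comparison the difference was 1.70 (adjusted p = 0.0481). It was 1.55 (adjusted p = 0.0827) without both Tgfbr2_WT libraries of this comparison. Within the 2 runs that held both compartments Rgs5 was higher in oral, by log2 differences of 3.58 and 1.55.

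The remaining members were on the other side or near 0 there, with Tagln at -0.70, Acta2 at -0.48, Myl9 at -0.45 and Cspg4 at -0.23. Not tested were Kcnj8 (2.41 and 0.849 RPKM), Abcc9 (3.15 and 2.37 RPKM), Actg2 (0.752 and 1.71 RPKM), Myh11 (0.603 and 0.592 RPKM) and Cnn1 (0.483 and 1.34 RPKM), of which Cnn1 did not overlap. Endothelial markers summed to 255 to 347 RPKM in posterior oral and 124 to 185 RPKM in posterior nasal libraries without overlap, and osteoblast and cartilage markers to 148 to 208 RPKM and 462 to 673 RPKM. Their part in the Rgs5 difference was not tested. The interaction of the oral-nasal difference with the axis was -1.85 for Rgs5 (SE 0.63, unadjusted p = 0.0129, adjusted p = 0.900). None of 8 members (1 at an unadjusted p under 0.05) and 4 of 11442 genes passed this interaction test (0.035%), with 387 genes at an unadjusted p under 0.05.

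How the 10 genes varied together was described by Pearson r over the 25 libraries on the log2(RPKM + 0.1) scale. The libraries share compartments, runs and depth, so these values are descriptions. Kcnj8 and Abcc9 had an r of 0.88, and Abcc9 was the gene most like Kcnj8 among 11913. Within compartments, after subtracting compartment means, their r was 0.67. Tagln and Myl9 had an r of 0.78, and 0.75 within compartments, and each was among the 3 genes most like the other. Acta2 followed Tagln and Myl9 (0.60 and 0.56) rather than Kcnj8 and Abcc9 (0.15 and 0.18). Actg2 had 0.79 with Abcc9 over all libraries and 0.13 within compartments. Myh11 and Rgs5 had 0.04 over all libraries and -0.70 within compartments, and the ERK2_WT libraries entered both. The highest r of Cspg4 with another member was that with Acta2, at 0.14 over all libraries and 0.31 within compartments.

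**Figure D4:**
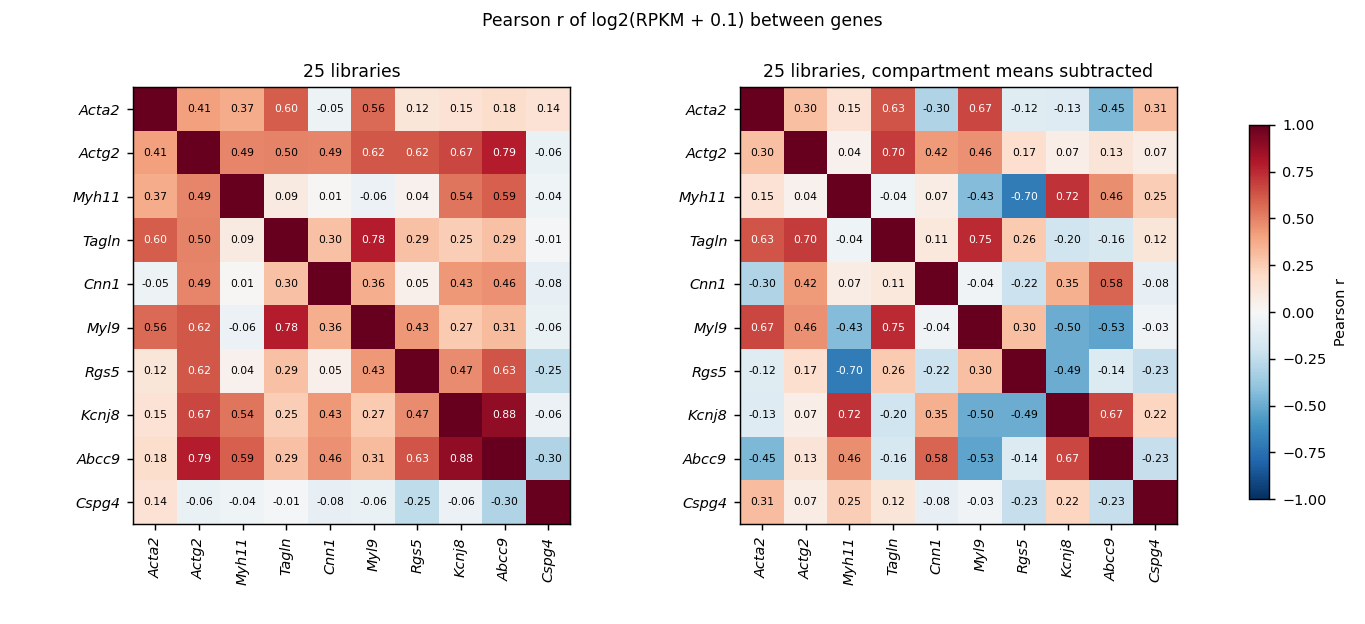
Pearson r of log2(RPKM + 0.1) between the 10 genes over 25 libraries (left) and after subtracting compartment means (right), with red for positive and blue for negative r. Kcnj8 and Abcc9 stand at 0.88 and 0.67, Tagln and Myl9 at 0.78 and 0.75, and the highest r of Cspg4 are 0.14 and 0.31.

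The genes most like each member were otherwise of mixed kinds. For Abcc9 they were Hecw1 (0.94), the ryanodine receptor gene Ryr2 (0.91) and Nfia (0.91). For Actg2 they were Slit2 (0.88), Aoc3 (0.86), which encodes the vascular adhesion protein made by smooth muscle, and Gja5 (0.85). Rgs5 was most like H2-K1 (0.88), Tmem30b (0.86) and Shox2 (0.83), a homeobox gene of the anterior palate, and Kcnj8 after Abcc9 was most like Bcl2 (0.85) and Msx1as (0.84). Acta2 had no partner above 0.73 (Slc9a3r1), followed by Bcl3 (0.71) and Krt17 (0.69), and Myh11 none above 0.77 (Dtx4), followed by Smarca2 (0.76) and Prex2 (0.75). Tagln after Myl9 was most like Cpxm2 and A2m (both 0.72), and Myl9 was most like Emp2 (0.82) and Emid1 (0.79). Cnn1, at few reads, was most like Pcdhb15 (0.82), Ifitm1 (0.80) and 2900005J15Rik (0.79). Cspg4 was most like Plcb3 (0.94), Arid1b (0.90) and Prex1 (0.88).

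Sequence shared with other genes was checked by exact matches between annotated transcripts, so near matches were not covered. Of the 50 base windows of each transcript, 0.844% or less occurred in another gene for every member, with Acta2 at 0.352%, against the cytoplasmic actin gene Actg1 and actin pseudogenes, and Actg2 at 0%. In the deposited table Tagln overlaps Pcsk7 and Abcc9 overlaps 5330439B14Rik, and since the use of strand in counting is not given in the sources used here, reads of such partners cannot be told apart.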

How the data were processed

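Compartments and replicate numbers were taken from the sample labels. RPKM values of 37406 genes were deposited, which the authors had computed in GeneSpring from single-end reads of 50 bases (mm9 and TopHat are named in the submitters' processing notes), after removing duplicate and multiply aligned reads. The gene annotation and the use of strand are not given in the sources used here. One column whose header carries an alignment name in place of the unit was read as RPKM. RNA had been amplified (NuGEN Ovation V2) and tagmented (Nextera). Read numbers were inferred from the value of 1 read on short loci of at most 2500 bases, and cover counting error only. Sequencing runs and alignment names came from column headers of the study's supplementary tables.

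Tests used limma 3.58.1 (R 4.3.3) on log2(RPKM + 0.1), which understates changes of low genes, with Benjamini-Hochberg adjustment over all genes tested and an adjusted p under 0.05 as the call. Compartment pairs used their own libraries and genes with 5 RPKM in at least 3 of them, and the anterior-posterior comparison used all 25 libraries and genes with 10 RPKM in at least 6. The F test used 5 RPKM in 3 libraries. The study's pooled-read test needs counts and was not run. The scripts were tested on simulated data with 200 changed genes. In the posterior versus anterior simulation 86% of genes changed 2-fold were called, and in posterior lateral versus medial 0% of those changed 4-fold were. In anterior and in posterior oral versus nasal 0% of genes changed 2-fold were called, and 77.5% and 96.5% of those changed 4-fold. For the lateral-medial and oral-nasal interactions 40% and 52.5% of genes changed 4-fold were called.

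The members and gene lists were chosen with earlier results of these data known. All 10 members are named in each comparison of compartments or sides, with up to 4 genes of each other list by lowest adjusted p along the anterior-posterior axis, and the 3 most alike genes of each member. In anterior lateral versus medial the genes named from all other lists were those that passed, and they were chosen after their values were seen. Deviations of same-numbered libraries had r of 0.24, 0.21 and 0.13 across genes in anterior oral and nasal, where number 1 alone shared a run. In posterior lateral and medial r was 0.23, 0.04 and 0.28. In posterior oral and nasal r was 0.22, -0.08 and 0.42, and in anterior lateral and medial 0.0042, -0.15 and 0.0072. Libraries of different number were not compared, so replicate block fits were alternatives. Transcript lengths came from GENCODE M21 and promoters from RefSeq. Ahsp, 1 gene of the erythroid list, was not matched.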

Additional observations from a re-analysis of the deposited data

How the results depend on the processing

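For most alternative fits, here and above, the share of all genes that passed is not given, so counts of members are descriptions. Counts of members that passed at an adjusted p under 0.05 by limma moved as follows. In anterior lateral versus medial the count of 3 became 1 with all 25 libraries in 1 fit and 0 with the sequencing run as a further term, and it lay between 1 and 4 when single libraries were left out. Under the study's rule the count of 5 there became 3 and 0 in those 2 fits and lay between 2 and 5 with single libraries left out. In posterior lateral versus medial 1 member passed in the fit of all libraries, and the count under the study's rule fell to 0 with the run. In posterior oral versus nasal the count under the study's rule was 2 without a minimum or with one of 1 RPKM, and with single libraries left out it lay between 0 and 1, as did the adjusted count. Along the anterior-posterior axis the count of 4 became 2 with the run and 6 without both low correlation libraries, and lay between 2 and 5 with single libraries left out. The value of 2 came without any of the 3 anterior lateral libraries, anterior nasal replicate 1 or anterior oral replicate 2, where Actg2 fell under the minimum. The count under the study's rule there, 3, became 5 at both lower minimums. The lateral-medial interaction gave 1 call with a pseudocount of 1, and 1 to 4 members under the study's rule with single libraries left out. The oral-nasal interaction gave 0 members under the study's rule in the fit of all libraries, 2 without both low correlation libraries and 1 to 2 with single libraries left out, 2 coming without anterior oral replicate 1. The F test called 1 member with the run and 3 without the Tgfbr2_WT libraries. Median centring changed the calls over all genes along the axis from 143 higher and 143 lower to 114 higher and 179 lower in the posterior palate, with 5 members called. The cause of these changes was not tested, except where fewer genes met the minimum.

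With a replicate block 3 members passed in anterior lateral versus medial, 0 in the other 3 pairs of compartments, 5 along the axis (Tagln in addition, adjusted p = 0.0398) and 4 by the F test, where Rgs5 was lost (adjusted p = 0.0744). The labels do not say that the numbers are paired, and in anterior oral and nasal the block changed no call.

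Directions turned in differences that did not pass. In posterior lateral versus medial, Tagln was 0.32, Myl9 0.76 and Cspg4 0.63 with the run, Myl9 0.13 and Rgs5 -0.18 with quantile normalization, Myl9 0.0324 without both low correlation libraries, and Myl9 0.0929 and Cspg4 0.15 without the ERK2_WT libraries. In anterior oral versus nasal, Acta2 was 0.16, Tagln 0.29 and Cspg4 0.58 without the low correlation libraries, and Cspg4 was 0.00798 with a pseudocount of 1, 0.12 with quantile normalization and 0.0463 with the replicate block. In the lateral-medial interaction, Tagln was 0.19, Myl9 -0.0193 and Kcnj8 1.04 with quantile normalization, Tagln 0.14 and Kcnj8 0.19 without the low correlation libraries, Myl9 -0.0167 without the ERK2_WT libraries and Kcnj8 0.50 with a pseudocount of 1. In the oral-nasal interaction, Myl9 was -0.0118 with median centring and -0.20 with the replicate block. Without the Tgfbr2_WT libraries, Actg2 was -0.57 in anterior oral versus nasal, Cspg4 was 0.24 in posterior oral versus nasal, and in the oral-nasal interaction Acta2 was -0.42, Tagln -0.31, Myl9 -0.37 and Cspg4 -0.73.

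With single libraries left out, log2 differences that turned ranged from -0.17 to 0.24 for Myl9 in anterior lateral versus medial. In posterior lateral versus medial they ranged from -0.30 to 0.20 for Myl9, -0.19 to 1.96 for Rgs5 and -0.65 to 0.0254 for Cspg4. In anterior oral versus nasal the ranges were -0.35 to 0.16 for Acta2, -0.18 to 1.11 for Actg2, -0.57 to 0.29 for Tagln and -0.57 to 0.58 for Cspg4, and in posterior oral versus nasal -0.49 to 0.24 for Cspg4. For the lateral-medial interaction they were -0.63 to 0.40 for Tagln, -0.14 to 0.38 for Myl9, -0.48 to 1.67 for Rgs5 and -2.37 to 0.20 for Kcnj8. For the oral-nasal interaction they were -0.0656 to 0.64 for Acta2, -0.28 to 0.22 for Myl9 and -0.35 to 0.80 for Cspg4. None of the 6 members tested along the anterior-posterior axis turned direction in any alternative. Apart from single libraries left out, 16 counts moved by more than 1.5 times and 160 did not. Leaving out libraries on the genes of the full comparison and the fits without low correlation, ERK2_WT or Tgfbr2_WT libraries were chosen after seeing the data. Depth limits Actg2, Cnn1 and Kcnj8 in posterior libraries, where values of under 10 reads were common.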
